A study of Mus musculus with 8 samples.

Results

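Peroxisome biogenesis and oxidation was followed through 33 listed genes in bulk RNA-seq of brown adipose tissue (BAT), out of 31053 genes in the count table. The list holds 12 peroxins, which build the organelle, and 21 peroxisomal lipid enzymes and membrane proteins. The rule names the genes by function and uses no measured value, although the list was drawn up with earlier results of these data known. Of the 33 genes, 32 had enough counts to be tested. The 2 groups were 4 WT mice and 4 ATGLKO mice (Ucp1Δ/Δ in the study's own naming), all of the C57BL6/J strain and male, and given as 10 weeks old in the sample labels, whereas the legend of the study gives a younger age. In ATGLKO mice a floxed Pnpla2, which encodes the triglyceride lipase ATGL, was deleted by a Cre recombinase under the Ucp1 promoter, so that only cells that switch on Ucp1, the thermogenic adipocytes, lose it. The sources used here do not say whether the WT mice carried the floxed allele without Cre. The labels give BAT as the tissue and Stromal Vascular Fraction, which means the cells of digested fat other than adipocytes, as the cell type.

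Peroxisomes are small organelles with a single membrane that shorten very-long-chain and branched fatty acids, break down the hydrogen peroxide this produces, and carry out the first steps of ether lipid synthesis. Peroxins insert the membrane proteins, dock and import the folded enzymes, recycle the import receptors and divide the organelle. Brown fat is rich in peroxisomes, which multiply when the tissue is recruited for heat production, and many genes of peroxisomal oxidation are known targets of PPARα, a nuclear receptor activated by fatty acids.

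Total counts ranged from 2017697 to 3115956 per mouse, of which mitochondrially encoded genes took 38.4% to 45.6% and the 33 listed genes 0.257% to 0.420%. Expression levels are given as CPM, counts scaled to a common library size by the TMM method, and 3 counts corresponded to between 0.933 and 1.53 CPM, a floor for counting error only. Pnpla2, the deleted gene, had 2913 ± 191 CPM (SD, n = 4) in WT mice and 474 ± 59.2 CPM (SD, n = 4) in ATGLKO mice, with a log2 fold change (log2FC, ATGLKO over WT) of -2.62 (SE 0.17, adjusted p = 1.97e-07). Which exons were deleted is not given in the sources used here. Brown adipocyte markers summed to between 13871 and 22115 CPM in WT mice and between 9832 and 14475 CPM in ATGLKO mice, so adipocyte RNA was abundant in libraries labelled as stromal vascular fraction. Adjusted p-values here and below come from edgeR's quasi-likelihood test over all 8930 tested genes with Benjamini-Hochberg adjustment, and a gene was called at an adjusted p under 0.05.

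Most of the peroxisomal genes had lower levels in ATGLKO mice. Of the 32 tested genes, 9 fell (28.1%), against 7.63% of all tested genes, and 2 rose (6.25%), against 13.3% of all tested genes (21% were called in either direction). The genes that fell were the peroxins Pex3, Pex16, Pex13 and Pex11a, the membrane proteins Abcd3 and Pxmp2, and the enzymes Acaa1b, Decr2 and Cat, and those that rose were Acox3 and Far1. Far1 passed the filter on low counts only because it was high in ATGLKO mice, and without it 1 of 31 genes rose. The log2FC was below 0 for 28 of the 32 genes (87.5%), against 50.7% of all tested genes, with a median of -0.55 against -0.0087. CPM values did not overlap between genotypes for 11 genes that were lower in ATGLKO mice and for the same 2 that were higher, against 9.37% and 14.4% of all tested genes (23.7% in either direction). In bulk tissue, fewer cells of a type and less RNA per cell cannot be told apart.

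Markers of several cell types moved with genotype beside these changes. Of 8 brown adipocyte markers, 3 fell (Cidea, Adipoq and Plin1), or 37.5% against 7.63% of all tested genes. The genotypes overlapped in the list's average log2 CPM, with ATGLKO replicate 1 (9.72) above WT replicate 4 (9.66). That average was 0.52 lower in ATGLKO mice (10.04 in WT, 9.52 in ATGLKO). The corresponding difference was 0.55 for the peroxins, 0.36 for the enzymes and membrane proteins, 0.34 for other biogenesis genes and 0.48 for other peroxisomal enzymes. Macrophage markers rose for 7 of 7 tested, against 13.3% of all tested genes. In WT mice Cd68 had only 4, 10, 5 and 6 counts and Adgre1 0, 11, 6 and 3. Cd68 thus passed the filter only through ATGLKO mice and Adgre1 mainly through them, and their calls are given as a description. The remaining tested macrophage markers were also called higher. Cd14 had too few counts to test, with overlapping values. The sum of all 8 macrophage markers was 97.8 to 151 CPM in WT mice and 930 to 1502 CPM in ATGLKO mice. Stromal markers rose for 5 of 5 (against 13.3%), with sums of 256 to 328 CPM in WT mice and 589 to 982 CPM in ATGLKO mice. Dcn, at 249 ± 26.5 CPM in WT mice and 600 ± 126 CPM in ATGLKO mice, made up most of these sums. Counts in WT mice were low for Pdgfra (14, 10, 14 and 0), Pdgfrb (9, 15, 17 and 7) and Lum (5, 21, 9 and 10). Values of Pdgfra and Pdgfrb overlapped between genotypes. Of 5 endothelial markers, 1 rose (Tie1), against 13.3% of all tested genes, and 0 fell, against 7.63%. Their log2FC was above 0 for 4 of the 5 and below 0 for Emcn (-0.41), which was not called. Pecam1 and Cdh5 were not called either, although their CPM values were higher in ATGLKO mice without overlap. The endothelial sums were 133 to 170 CPM in WT mice and 185 to 202 CPM in ATGLKO mice. None of 7 skeletal muscle markers was called or had an unadjusted p under 0.05, but their sum varied from 17.0 to 1288 CPM in WT mice and from 55.6 to 1831 CPM in ATGLKO mice, highest in WT replicate 1 and ATGLKO replicate 2. No marker was at 0 in all mice, and the part of cell composition in the peroxisomal changes was not tested.

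**Figure D1:**
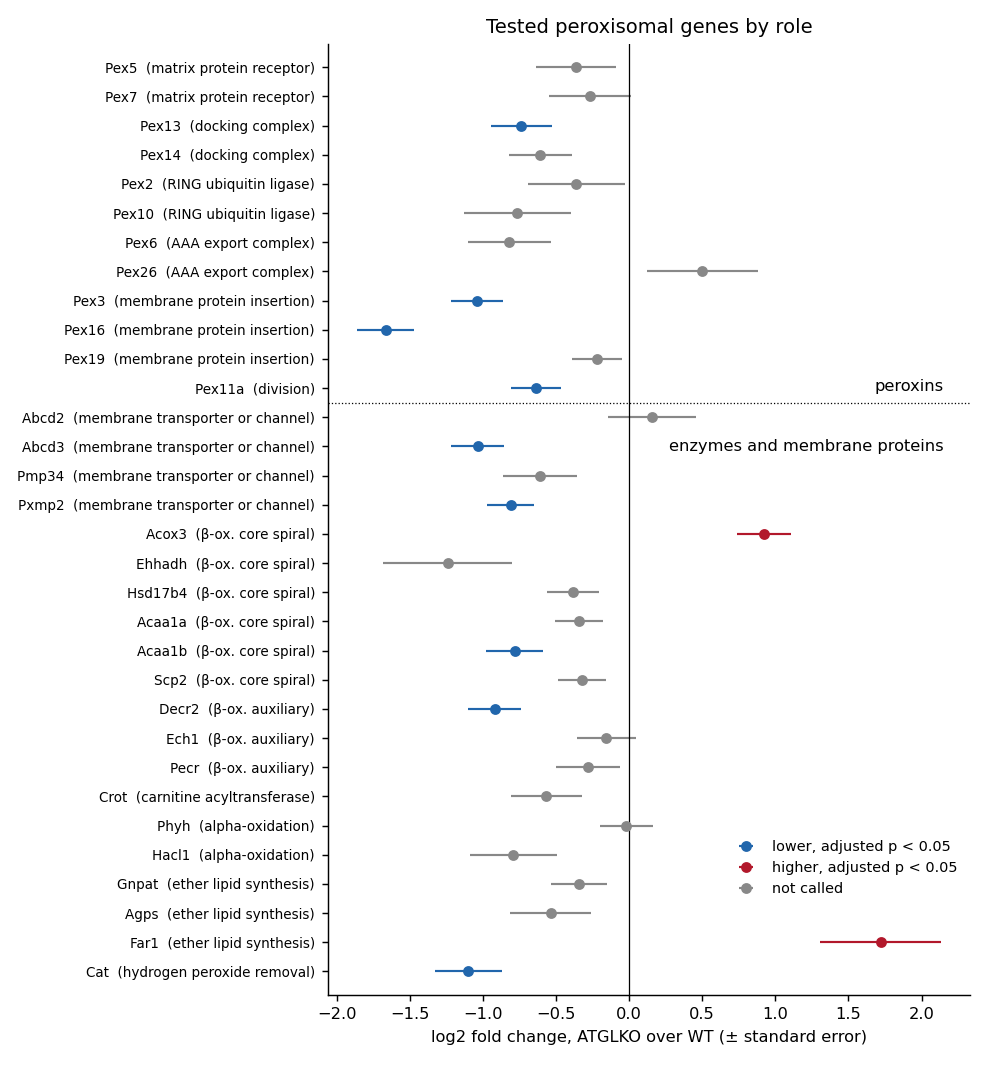
Log2 fold change of ATGLKO over WT (x axis, points with standard error bars) for the 32 tested peroxisomal genes (y axis, with the role of each), from 4 mice per genotype. The 9 genes in blue fell, led by Pex16 at -1.67, the 2 in red, Acox3 and Far1, rose, and the 21 in grey were not called.

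The insertion machinery for membrane proteins held the largest fall of the list. Pex16 (ENSMUSG00000027222, mm10 chromosome 2, 92374676 to 92381217, plus strand) encodes the membrane protein that recruits others to new peroxisomes. It had 56.6, 73.0, 58.1 and 58.3 CPM in WT replicates 1 to 4 and 24.4, 21.2, 15.0 and 16.3 CPM in ATGLKO replicates 1 to 4. Every ATGLKO mouse was well below every WT mouse, and WT replicate 2 stood above the other WT mice. The mean fell from 61.5 ± 7.72 to 19.2 ± 4.34 CPM (SD, n = 4 each), or 31.3% of WT (log2FC -1.67, SE 0.20, adjusted p = 2.2e-05). Pex3 (ENSMUSG00000019809, chromosome 10, 13523842 to 13553142, minus strand), the membrane anchor that receives the cargo of Pex19, had 107, 80.2, 132 and 114 CPM in the WT mice. Its values in the ATGLKO mice were 56.6, 53.2, 52.2 and 48.5 CPM. The ATGLKO mice were tightly grouped and the WT mice spread widely, without overlap. Pex3 fell to 48.6% of WT (log2FC -1.04, SE 0.18, adjusted p = 0.00058). Pex19, the cytosolic chaperone of the same step, was not called (log2FC -0.22, adjusted p = 0.415). Both Pex16 and Pex3 stayed called in every alternative tried.

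The docking complex, Pex13 and Pex14, forms the entry site for matrix enzymes. Pex13 (ENSMUSG00000020283, chromosome 11, 23646479 to 23665959, minus strand) had 21.4, 37.2, 28.7 and 29.9 CPM in WT mice and 19.1, 16.5, 15.0 and 19.7 CPM in ATGLKO mice. The groups did not overlap, but the lowest WT mouse, replicate 1, was close to the highest ATGLKO mouse. Pex13 fell from 29.3 ± 6.46 to 17.6 ± 2.21 CPM (log2FC -0.74, SE 0.21, adjusted p = 0.0198), a call lost without ATGLKO replicate 2 (adjusted p = 0.0659) or without ATGLKO replicate 3 (adjusted p = 0.0592). Pex14 had 39.5 ± 8.76 CPM in WT mice and 26.1 ± 5.85 CPM in ATGLKO mice and was just outside the threshold (log2FC -0.61, adjusted p = 0.0545). The strand setting of the counting was not given in the sources used here, and Pex13 overlaps the antisense gene Pus10, which had 107 counts over all mice against 459 for Pex13.

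Pex11a, which elongates the membrane before division, was the only division factor among the 33 genes. It lies on chromosome 7 from 79735957 to 79743131 on the minus strand (ENSMUSG00000030545). The WT mice had 169, 159, 199.7 and 164 CPM and the ATGLKO mice 100.1, 93.7, 133 and 119 CPM. The groups did not overlap, and replicate 3 was highest in both. Pex11a fell from 173 ± 18.2 to 112 ± 18.1 CPM (SD, n = 4 each; log2FC -0.63, SE 0.17, adjusted p = 0.0144). That call was lost without WT replicate 3 (adjusted p = 0.0552), ATGLKO replicate 1 (0.0506) or ATGLKO replicate 2 (0.0603), and with the mouse highest in muscle markers left out of each genotype (0.111).

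The cytosolic receptors and the machinery that recycles them held no called gene. Pex5, the receptor for most matrix enzymes, had 9.69, 14.8, 13.7 and 10.1 CPM in WT mice and 9.55, 5.91, 11.3 and 11.6 CPM in ATGLKO mice (log2FC -0.36, SE 0.27, adjusted p = 0.39). The ranges overlapped, as they did for Pex7, the second receptor (log2FC -0.27). Pex10, a RING ubiquitin ligase that marks Pex5 for recycling, had 7.14, 8.96, 3.34 and 6.59 CPM in WT mice and 3.54, 3.42, 2.93 and 5.15 CPM in ATGLKO mice (log2FC -0.76, SE 0.36, adjusted p = 0.158). Its partner Pex2 had a log2FC of -0.36. Pex6, an ATPase that pulls receptors out of the membrane, had 26.5, 55.1, 35.4 and 20.3 CPM in WT mice and 17.3, 14.0, 22.6 and 24.9 CPM in ATGLKO mice. WT replicate 4 lay within the range of the ATGLKO mice, and Pex6 was just outside the threshold (log2FC -0.82, SE 0.28, adjusted p = 0.0527). Pex26, its membrane anchor, was the only peroxin with a log2FC above 0, at 0.50 (adjusted p = 0.397). The 8 peroxins that were not called had log2FC values from -0.82 to 0.50, 7 of them below 0.

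**Figure D2:**
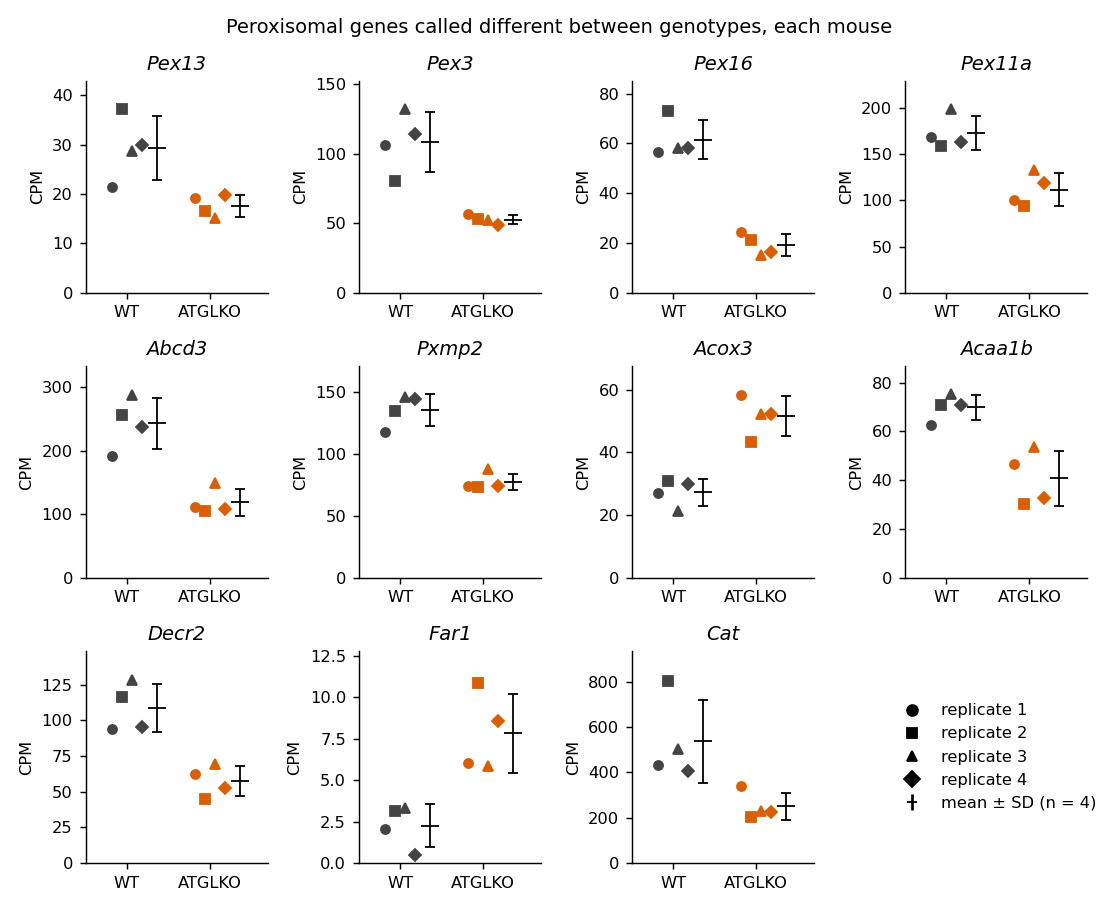
CPM (y axis, from 0) of the 11 called peroxisomal genes in each WT (grey) and ATGLKO (orange) mouse, with marker shapes for replicate numbers and bars for the mean ± SD of 4 mice. In none of the panels do the genotypes overlap, and Acox3 and Far1 are the panels in which the ATGLKO mice are higher.

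Among the membrane transporters and channels, Abcd3 and Pxmp2 fell. Abcd3 (ENSMUSG00000028127, chromosome 3, 121758774 to 121815302, minus strand) encodes PMP70, which imports branched-chain and dicarboxylic acyl-CoA. Its values were 192, 256, 288 and 238 CPM in WT mice and 112, 105, 149.6 and 109 CPM in ATGLKO mice, each ATGLKO mouse below all WT mice. Abcd3 fell from 244 ± 40.1 to 119 ± 20.7 CPM (log2FC -1.04, SE 0.18, adjusted p = 0.000696). Pxmp2 (ENSMUSG00000029499, chromosome 5, 110274282 to 110286186, minus strand), a membrane channel for small solutes, had 118, 134, 146 and 144 CPM in WT mice and 74.3, 73.4, 87.3 and 74.3 CPM in ATGLKO mice. The spread within each genotype was small beside the gap between them (log2FC -0.81, SE 0.16, adjusted p = 0.00172). Pmp34 (symbol Slc25a17), a carrier of CoA and other cofactors, had a log2FC of -0.61 (adjusted p = 0.103), and Abcd2, a transporter of very-long-chain acyl-CoA, one of 0.16 (adjusted p = 0.767). Abcd2 had overlapping values, 26.2 ± 9.86 CPM in WT mice and 28.6 ± 10.1 CPM in ATGLKO mice.

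The core steps of peroxisomal β-oxidation did not all move in the same direction. Of 6 core genes, 5 had a log2FC below 0 and 1, Acox3, above 0, with a median of -0.36. Acox3 (ENSMUSG00000029098, chromosome 5, 35583040 to 35615352, plus strand), an oxidase that opens the shortening of branched acyl-CoA, had 27.0, 30.9, 21.4 and 29.9 CPM in WT mice. In ATGLKO mice it had 58.4, 43.3, 52.2 and 52.4 CPM, all above the WT mice. Acox3 rose to 189% of WT (27.3 ± 4.28 to 51.6 ± 6.23 CPM, log2FC 0.92, SE 0.18, adjusted p = 0.00185). Acaa1b (ENSMUSG00000010651, chromosome 9, 119148023 to 119157093, minus strand), a thiolase that releases acetyl-CoA at the end of each round, had 62.7, 70.8, 75.1 and 70.9 CPM in WT mice and 46.7, 30.2, 53.5 and 32.6 CPM in ATGLKO mice. The WT mice were close together and lay above the more spread ATGLKO mice (log2FC -0.78, SE 0.20, adjusted p = 0.00967). With the mouse highest in muscle markers left out of each genotype, the call on Acaa1b was lost (adjusted p = 0.0728). Its near-identical neighbour Acaa1a was not called (log2FC -0.34, adjusted p = 0.167). Acaa1a overlaps the antisense gene Myd88, which had 278 counts over all mice against 1492 for Acaa1a. Acaa1b shares 28.5% of the 75-base stretches of its transcript with Acaa1a, so the division of reads between the 2 thiolase genes is uncertain, and with their counts summed the log2FC was -0.52 (SE 0.17, adjusted p = 0.0358).

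The remaining core enzymes were not called. Ehhadh, the L-bifunctional enzyme of the middle steps, had the lowest fitted log2FC of the enzymes, -1.24 (SE 0.44, adjusted p = 0.0592), at 8.29 ± 4.50 CPM in WT mice and 3.54 ± 2.14 CPM in ATGLKO mice. The D-bifunctional enzyme Hsd17b4 had a log2FC of -0.38 (adjusted p = 0.15), although its 2 groups did not overlap. Scp2, a thiolase and sterol carrier, had a log2FC of -0.32 (adjusted p = 0.181), and it shares 36.7% of its 75-base stretches with other annotated genes.

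Of the auxiliary enzymes, which handle double bonds and side chains, Decr2 fell. Decr2 (ENSMUSG00000036775, chromosome 17, 26081208 to 26090337, minus strand) encodes the peroxisomal dienoyl-CoA reductase. It had 93.8, 116, 128 and 95.2 CPM in WT mice and 62.3, 45.1, 69.4 and 52.8 CPM in ATGLKO mice. All ATGLKO mice were below all WT mice, and Decr2 fell from 108 ± 16.7 to 57.4 ± 10.6 CPM (log2FC -0.92, SE 0.18, adjusted p = 0.00197). Ech1, a dienoyl-CoA isomerase, and Pecr, an enoyl-CoA reductase, had log2FC values of -0.16 and -0.28 and were not called. Amacr, the racemase for branched acyl-CoA, had too few counts to test, with 10, 10, 17 and 5 counts in WT mice and 8, 21, 4 and 6 counts in ATGLKO mice.

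Crot, which hands medium-chain acyl groups to carnitine for export, had 21.4, 15.7, 16.0 and 16.2 CPM in WT mice and 8.49, 16.2, 11.7 and 9.87 CPM in ATGLKO mice. ATGLKO replicate 2 lay within the WT range, and Crot was not called (log2FC -0.57, SE 0.24, adjusted p = 0.117). In α-oxidation, which removes a single carbon from phytanic acid, Hacl1 had 8.16, 14.3, 9.02 and 9.12 CPM in WT mice and 6.01, 5.91, 3.76 and 7.73 CPM in ATGLKO mice. The groups did not overlap but the call was not reached (log2FC -0.79, SE 0.30, adjusted p = 0.0748). Hacl1 overlaps the antisense gene Btd, which had more counts over all mice (240) than Hacl1 itself (156). Phyh, the hydroxylase that starts the same pathway, had 397 ± 79.5 CPM in WT mice and 392 ± 61.7 CPM in ATGLKO mice (log2FC -0.020, SE 0.18, adjusted p = 0.955).

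Ether lipid synthesis held the other gene called higher. Far1 (ENSMUSG00000030759, chromosome 7, 113513834 to 113571511, plus strand), the reductase that supplies fatty alcohol, had only 4, 7, 10 and 1 counts in WT mice and 17, 35, 14 and 20 counts in ATGLKO mice. In CPM these were 2.04, 3.14, 3.34 and 0.507 against 6.01, 10.9, 5.85 and 8.58, with all ATGLKO mice higher. The means were 2.26 ± 1.30 and 7.83 ± 2.39 CPM (log2FC 1.72, SE 0.41, adjusted p = 0.00746). Since Far1 was tested only through its level in ATGLKO mice, that p describes a gene admitted by its own difference and is given as a description. Far1 was not called with the mouse highest in muscle markers left out of each genotype (adjusted p = 0.0763). Gnpat and Agps, which attach the first acyl chain and exchange it for the fatty alcohol, had log2FC values of -0.34 (adjusted p = 0.231) and -0.54 (adjusted p = 0.195). Gnpat overlaps the antisense gene 2810004N23Rik, which had 1080 counts over all mice against 2205 for Gnpat.

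Cat (ENSMUSG00000027187, chromosome 2, 103453849 to 103485160, minus strand) encodes catalase, which removes the hydrogen peroxide made by the oxidases. It had 432, 803, 503 and 405 CPM in WT mice and 338, 204, 231 and 227 CPM in ATGLKO mice. WT replicate 2 was far above the other WT mice, and ATGLKO replicate 1, the highest of its group, was still below all WT mice. Cat fell to 46.6% of WT (536 ± 183 to 250 ± 59.8 CPM, log2FC -1.10, SE 0.23, adjusted p = 0.0028), and was called in every alternative tried, as were Abcd3, Pxmp2, Acox3 and Decr2.

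Biogenesis was then set beside the enzymes. Of the 12 peroxins, 4 fell (33.3%, against 7.63% of all tested genes) and 0 rose, with a median log2FC of -0.62. At an unadjusted p under 0.05, 6 peroxins passed (50.0%) and 12 enzymes and membrane proteins (60.0%), against 32.6% of all tested genes. No peroxin was called higher by DESeq2 or limma. Of the 20 tested enzymes and membrane proteins, 5 fell (25.0%, against 7.63%) and 2 rose (10.0%, against 13.3%). Their median was -0.46. Without Far1, 1 of 19 rose (5.26%) and the median was -0.54. Without the membrane proteins, 3 of 16 enzymes fell (18.8%) and 2 rose (12.5%), with a median of -0.36. With 1 or 2 genes behind them, the enzyme shares that rose are not read as different from the 13.3% of all tested genes. The peroxin count depended on ATGLKO replicate 2, without which 2 peroxins, Pex3 and Pex16, were called lower.

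The contrast was also followed in each mouse as the mean log2 CPM over each list. The peroxins averaged 4.64, 4.98, 4.73 and 4.55 in WT mice and 4.21, 4.07, 4.25 and 4.18 in ATGLKO mice, with no overlap. The enzymes and membrane proteins averaged 5.79, 6.15, 5.98 and 5.71 in WT mice and 5.64, 5.53, 5.54 and 5.50 in ATGLKO mice, also with no overlap. The enzyme mean minus the peroxin mean was 1.18 ± 0.044 in WT mice and 1.38 ± 0.081 in ATGLKO mice (SD, n = 4 each), a difference of 0.19 on the log2 scale. Without Far1, it was 1.42 ± 0.036 and 1.51 ± 0.076, a difference of 0.092, and the genotypes overlapped. Without Far1 and Acox3 it was 1.49 ± 0.044 and 1.51 ± 0.079, a difference of 0.016. Both were picked because they were higher, so their removal had to narrow the difference, and no genes were removed from the peroxins. The difference between the lists was not tested.

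**Figure D3:**
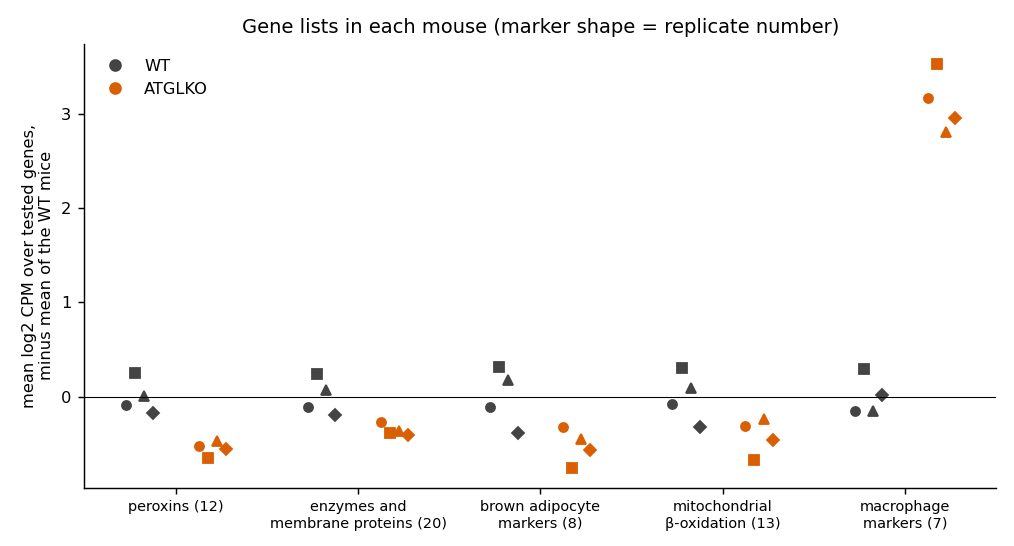
Mean log2 CPM over the tested genes of each list (x axis, number of genes in brackets) in each WT (grey) and ATGLKO (orange) mouse, with the mean of the WT mice subtracted (y axis) and marker shapes for replicate numbers. The ATGLKO mice lie below 0, the mean of the WT mice, for peroxins, enzymes, brown adipocyte markers and mitochondrial β-oxidation. The genotypes overlap for brown adipocyte markers and mitochondrial β-oxidation, and not for peroxins and enzymes. For macrophage markers the ATGLKO mice lie far above the WT mice.

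Further peroxisomal genes outside the 33 fell in part, and none of them rose. Of 36 other peroxisomal enzymes and transporters, 23 could be tested, 10 fell (43.5%) and 0 rose, with a median log2FC of -0.60, against 7.63% lower among all tested genes. At an unadjusted p under 0.05 stood 13 of the 23 (56.5%), against 32.6% of all tested genes. Eci2, an enoyl-CoA isomerase, had a log2FC of -1.03 (adjusted p = 0.000578), and Nudt7, a hydrolase of CoA, one of -0.95 (adjusted p = 0.00058). Of 14 other genes of biogenesis and division, 13 were tested, 4 fell (30.8%, against 7.63%) and 0 rose, with a median of -0.41, and 5 were at an unadjusted p under 0.05 (38.5%, near the 32.6% of all tested genes). They included the membrane proteins Tmem135 (log2FC -0.88, adjusted p = 0.00168) and Pxmp4 (log2FC -0.95, adjusted p = 0.00222). Named after their values were seen, the other two were Dnm1l, the dynamin that cuts the organelle (log2FC -0.77, adjusted p = 0.0182), and Lonp2, its protease (log2FC -0.52, adjusted p = 0.0296).

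Mitochondrial β-oxidation genes and the receptors that act on peroxisomal genes were measured for comparison. Of 13 tested mitochondrial genes, 3 fell (23.1%, against 7.63% of all tested genes) and 0 rose, and 8 had an unadjusted p under 0.05 (61.5%, against 32.6%). Their median log2FC was -0.46, and the smallest adjusted p was that of the acylcarnitine carrier Slc25a20 (log2FC -1.01, adjusted p = 0.000739). Of 10 PPAR and coregulator genes, 2 fell (against 7.63% of all tested genes) and 0 rose, with a median of -0.28, and 3 had an unadjusted p under 0.05 (30.0%, near the 32.6% of all tested genes). These were named after their values were seen. Ppara, which encodes PPARα, fell from 203 ± 48.6 to 94.9 ± 34.2 CPM (log2FC -1.10, adjusted p = 0.00476), with the highest ATGLKO mouse above the lowest WT mouse. Esrra, which encodes the estrogen-related receptor ERRα, had a log2FC of -1.38 (adjusted p = 0.00611).

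Promoter sequence was examined as a property that the choice of genes did not use. Windows of 250 bases before the transcription start, from RefSeq on GRCm38.p6, were at hand for 27 of the 33 genes, 31 windows in all. Motifs were searched on both strands, and a gene counted if any of its windows held the motif. Some windows overlap annotated exons. For 24 of the 31, the first 20 bases after the window were in a GENCODE transcript of the gene. The direct repeat bound by PPAR with its partner RXR was searched as AGGTCA, any base and AGGTCA again. It was in 0 of the 27 genes, in 0.0407% of all genes and in 0.0281% of the tested genes. With so rare an exact match, 0 was the likely outcome for any 27 genes. The search therefore cannot tell whether PPAR binds near these genes. Its half-site AGGTCA was in 2 of 27 (7.41%), Cat and Scp2, against 15.8% of all genes and 12.8% of the tested genes. The GC box GGGCGG was in 20 of 27 (74.1%), against 35.4% of all genes and 66.9% of the tested genes. The CCAAT box was in 13 of 27 (48.1%), against 39.8% of tested genes, and TTCCGG, the core bound by ETS factors, in 10 (37.0%), against 27.2%. TGACGTCA, the cAMP response element, was in 1 (3.7%), that of Pex13, against 3.24% of tested genes.

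Windows of 4 called genes that hold no annotated exon are shown, read 5′ to 3′ on the strand of the gene, to set the gene with the largest fall (Pex16) and the largest rise (Far1) beside a transporter and a thiolase that fell. Capitals mark GC boxes on either strand. Pex16 (chr2:92374426-92374675, plus strand), whose window is the first of the entries for this gene, holds 1, Far1 (chr7:113513584-113513833, plus strand) holds 3, and Abcd3 (chr3:121815303-121815552, minus strand) and Acaa1b (chr9:119157094-119157343, minus strand) hold none. The windows differ in G and C content, 42.8% in Pex16, 67.6% in Far1, 72.0% in Abcd3 and 41.6% in Acaa1b.
Pex16: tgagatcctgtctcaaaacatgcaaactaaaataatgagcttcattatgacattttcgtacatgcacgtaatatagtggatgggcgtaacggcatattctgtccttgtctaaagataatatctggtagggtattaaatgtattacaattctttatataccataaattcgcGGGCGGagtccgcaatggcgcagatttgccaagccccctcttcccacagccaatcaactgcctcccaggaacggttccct
Far1: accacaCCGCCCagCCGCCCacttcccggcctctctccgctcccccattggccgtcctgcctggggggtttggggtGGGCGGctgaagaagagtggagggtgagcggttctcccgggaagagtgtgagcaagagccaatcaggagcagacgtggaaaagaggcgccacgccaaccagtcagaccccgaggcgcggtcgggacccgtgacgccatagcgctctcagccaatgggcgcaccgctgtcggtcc
Abcd3: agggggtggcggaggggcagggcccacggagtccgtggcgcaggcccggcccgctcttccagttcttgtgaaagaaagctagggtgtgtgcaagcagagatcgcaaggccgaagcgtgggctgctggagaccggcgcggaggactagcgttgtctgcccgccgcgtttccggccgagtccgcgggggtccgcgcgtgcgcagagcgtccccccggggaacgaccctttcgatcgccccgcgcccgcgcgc
Acaa1b: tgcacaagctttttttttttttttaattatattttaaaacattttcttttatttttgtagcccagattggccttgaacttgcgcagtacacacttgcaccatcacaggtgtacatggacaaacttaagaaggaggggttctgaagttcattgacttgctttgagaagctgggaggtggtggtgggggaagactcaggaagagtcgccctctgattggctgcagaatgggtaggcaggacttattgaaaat
In the windows shown, a GC box was thus present in a gene that fell and in one that rose, and absent from a pair of genes that fell. The other Pex16 window, also free of annotated exons, holds none, so its presence there depends on the start chosen. The other Abcd3 window holds none either.

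The 11 calls were repeated under other processing and without each mouse in turn. Of these, 7 were called in the same direction every time (Pex3, Pex16, Abcd3, Pxmp2, Acox3, Decr2 and Cat), and 4 lost the call at least once (Pex13, Pex11a, Acaa1b and Far1). The sign of the log2FC stayed the same for all 11 genes.

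**Figure D4:**
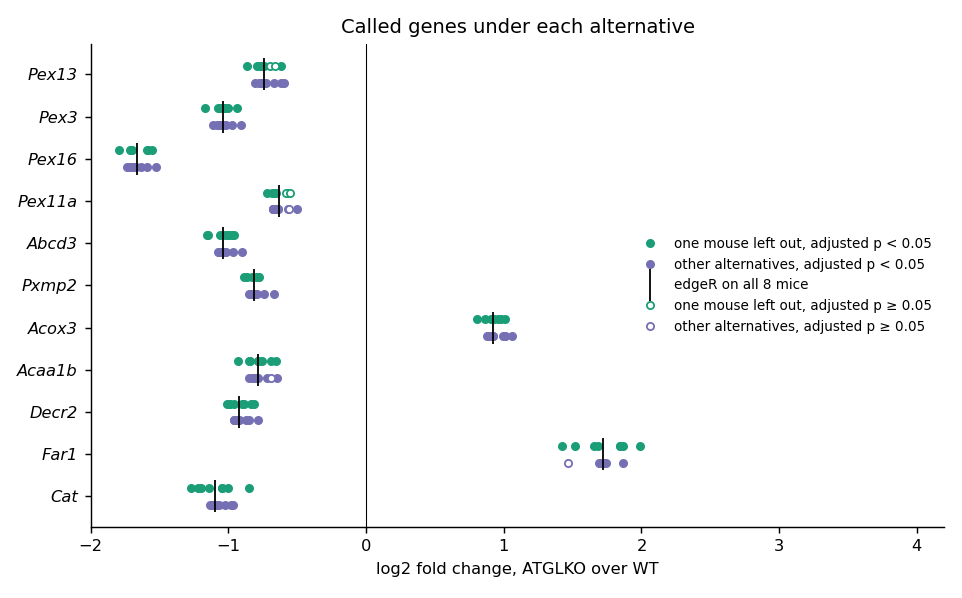
Log2 fold change of ATGLKO over WT (x axis) of the 11 called genes (y axis) under each alternative, with green points for 1 mouse left out, purple points for other processing, open points for an adjusted p of 0.05 or more, and black bars for edgeR on all 8 mice. Open points occur for Pex13, Pex11a, Acaa1b and Far1, and no point crosses 0.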

How the data were processed

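RNA of BAT from 4 WT and 4 ATGLKO mice was sequenced from a single end by a digital mRNA-seq service. Per the study's methods, the authors used bbduk for trimming and STAR for alignment to mm10, and deposited HTseq-counts, whole-number counts per Ensembl gene without normalization. The submitters' processing notes instead name Trimmomatic, HISAT2 and DESeq2. Strand setting and annotation release are not given in the sources used here. The authors also deposited log2 values of normalized counts, used in 1 alternative. A deposited table of sample attributes was not used.

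Groups came from the sample labels. Counts were filtered with filterByExpr, scaled by TMM and tested on genotype with edgeR 4.0.16 (quasi-likelihood, Benjamini-Hochberg adjustment over 8930 genes) in R 4.3.3, with limma 3.58.1 and DESeq2 1.42.0 as alternatives. The standard error was |log2FC| divided by the root of F. Log2 CPM used a prior count of 2. The tests were checked on simulated counts. Symbols and positions came from GENCODE vM21, which named 30934 of 31053 genes. Libraries of the same genotype were 4.69 to 23.2 times as far apart as counting noise (chi-square over its degrees of freedom), so none was a duplicate.

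The 33 genes and all lists were chosen with earlier results of these data known. Every called gene, and the gene with the smallest adjusted p in each role without one, was described in full. From the lists of other peroxisomal, mitochondrial β-oxidation, and PPAR and coregulator genes, the rule named at most 6 of smallest adjusted p. Dnm1l, Lonp2, Ppara, Esrra and Eci3 were named outside this rule, after their values were seen. The values of 1 gene under this rule are not reported here. Alternatives covered scaling, filter, test, threshold, removal of mitochondrially encoded genes, replicate number as a block and each mouse left out. After the data were seen, 3 more were added: limma on the deposited log2 values, 3 mice per genotype without the mouse highest in muscle markers, and summed Acaa1a and Acaa1b counts.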

Additional observations from a re-analysis of the deposited data

Results flagged for a closer look

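In 5 of 66 groups of 4 mice, 1 mouse stood far from the other 3, beyond the limit of Dixon's test for its gap to the nearest mouse over the range of the group, on the log2 scale. Chance gives such a gap in about 1 of 20 groups, or 3.3 of 66. Pex16 in WT replicate 2 was high, at 73.0 CPM against 56.6 to 58.3 CPM in the other WT mice (gap over range 0.887). Pxmp2 in ATGLKO replicate 3 was high, at 87.3 CPM against 73.4 to 74.3 CPM (0.933). Hsd17b4 in ATGLKO replicate 4 was low, at 49.4 CPM against 62.2 to 63.9 CPM (0.896). Crot in WT replicate 1 was high, at 21.4 CPM against 15.7 to 16.2 CPM (0.894). Agps in WT replicate 2 was high, at 13.9 CPM against 9.69 to 10.1 CPM (0.877). Pex16 and Pxmp2 were called with and without these mice.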

How the results depend on the processing

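Leaving out 1 mouse at a time gave 2 to 6 peroxins called lower and 0 higher, 5 to 7 enzymes and membrane proteins called lower and 2 higher, median log2FC of -0.70 to -0.50 for peroxins and -0.54 to -0.36 for enzymes and membrane proteins, and -2.68 to -2.54 for Pnpla2. Scaling by library totals only moved the median of all genes to 0.13, changed the calls from 1191 higher and 681 lower to 1478 and 404, and gave an enzyme median of -0.31. A minimum of 10 counts in every mouse also gave -0.31, and left 1 enzyme called higher because Far1 was removed. Leaving out the mouse highest in muscle markers from each genotype likewise left 1. DESeq2's Wald test, its size factors and a filter of at least 1 count in any mouse each gave 6 peroxins called lower, as did an adjusted p under 0.1, and an adjusted p under 0.01 gave 2.

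Phyh, near 0 throughout, turned positive with library totals only (0.12), limma voom (0.022), at least 10 counts (0.050) and the muscle-high mice left out (0.044), and ranged from -0.13 to 0.11 without single mice. Without single mice, Ech1 ranged from -0.28 to 0.048 and Abcd2 from -0.062 to 0.37. None of the 3 was called in any of these, and the cause was not tested.

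Mice sharing a number are different animals, and their deviations from the group means correlated at -0.196 to 0.304. Mice of unlike number were not compared, so these values cannot settle whether the numbers pair the mice. With the replicate number as a block, 4 peroxins and 5 enzymes and membrane proteins were lower and 2 higher, the medians were -0.62 and -0.47, and the Pnpla2 log2FC was -2.63, with no call on the listed genes changed. Counts over all genes with the block were 1138 higher and 581 lower.

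At these depths the lowest members had a few counts per mouse, so a missed call there is not evidence of no difference.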

Other observations

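Among the peroxisomal genes too low to test was Eci3, an enoyl-CoA isomerase of the same family as Eci2, named after its values were seen. It had 11, 9, 9 and 13 counts in WT mice and 1, 2, 0 and 1 counts in ATGLKO mice, or 4.81 ± 1.60 and 0.351 ± 0.26 CPM (SD, n = 4 each). All ATGLKO mice were below the level of 3 counts, so no test or fold is given.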
